A study of Homo sapiens with 15 samples.

Results

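RET, ALK and the neurotrophin receptors are a group of 9 genes that code for receptors of the neural crest lineage: RET, GFRA1, GFRA2, GFRA3, NTRK2, NTRK3, NGFR, ALK and LTK. They were found as all probe sets whose only gene symbol was one of these names, which gave 30 of the 41091 probe sets that name 1 gene, and 9 of the 19775 genes so named. RET rose late in the series, from 29.7 ± 14.6 signal units at 0 h to 539.6 ± 135.4 at 72 h (SD, n = 3 arrays each, brightest probe set). The ratio of these means was 18.2, and on the other 2 RET probe sets it was 4.02 and 5.41. The brightest probe set was chosen by its mean over all 15 arrays, so its high levels at 48 and 72 h entered the choice. At 0 h it was the dimmest of the RET probe sets, the other 2 having means of 49.5 and 31.5. GFRA1, the co-receptor that presents GDNF to RET, fell over the same interval from 74.2 ± 8.80 to 34.4 ± 10.0. ALK was slightly higher at 48 and 72 h, and GFRA2 and the probe set standing for NTRK3 passed no test in the main fit. Another NTRK3 probe set, 217377_x_at, was higher at 72 h (limma adjusted p = 0.0043). No probe set of GFRA3, NTRK2, NGFR or LTK was bright enough on average to be tested.

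These receptors carry survival and differentiation signals in sympathetic neurons and in neuroblastoma, the childhood tumour of that lineage. RET is a receptor tyrosine kinase that does not bind its ligands alone: GDNF, neurturin and artemin bind the membrane-anchored co-receptors GFRA1, GFRA2 and GFRA3, and the complex then activates RET. ALK and its close relative LTK are tyrosine kinases activated by the ALKAL proteins, and ALK is the receptor most often mutated in neuroblastoma. NTRK2 (TrkB) and NTRK3 (TrkC) are the kinase receptors of BDNF and neurotrophin-3, and NGFR (p75) is a receptor without kinase activity that binds all neurotrophins.

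The cells were IMR32, an established human neuroblastoma line with amplified MYCN. A tetracycline repressor (pcDNA6/TR, behind a CMV promoter) and then a repressor-controlled short hairpin RNA against CDK2 (pTER/CDK2) had been introduced, with selection in Blasticidin-S and Zeocine. All 15 arrays come from cells selected in this way, and so describe 1 selected derivative of 1 cell line. Doxycycline (100 ng/ml) switched the hairpin on, and total RNA was hybridised to Affymetrix arrays at 0, 8, 24, 48 and 72 h, with 3 arrays per time. No unit of time stands in the labels, and hours are taken from knowledge of the study. No group was kept without doxycycline or given another hairpin, so loss of CDK2, doxycycline and time in culture cannot be told apart at any later time. The labels do not say whether the 3 arrays of a time came from separate cultures, so p-values measure the spread between these arrays, which may be technical. In bulk RNA, fewer cells of a type and less RNA per cell cannot be told apart.

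CDK2, the targeted gene, had signals of 213.7 to 245.5 before doxycycline (0 h). After 8 h they were 90.2 to 100.8, after 24 h 72.4 to 87.8, after 48 h 40.1 to 53.0 and after 72 h 20.2 to 40.0. The 3 arrays of each later time lay below those of 0 h. Of 10 noradrenergic neuroblastoma markers 9 were on the array and 8 passed the filter for dim probe sets. Their summed signal was 10513 to 10906 at 0 h and 12829 to 13852 at 72 h. At 72 h 6 of them were called higher and 0 lower, where 32.8% of all genes were called higher and 22.7% lower. At 24 h 3 were called higher and 1 lower, and at 48 h 5 and 0. MYCN read 4557.8 ± 238.2 and GATA3 3231.7 ± 73.6 at 0 h (SD, n = 3), so MYCN and GATA3 make up most of that sum. TH, the first enzyme of catecholamine synthesis, was not measured above the filter. Of 8 Schwann cell markers 6 were on the array and 1 (FOXD3) passed the filter. Their summed signal was 48.0 to 70.8 at 0 h and 57.6 to 63.8 at 72 h, and 0 were called at any time. Of 6 immune markers 4 were on the array, 0 passed the filter, and they summed to 18.3 to 40.7 at 0 h and 16.8 to 41.4 at 72 h. All 10 markers of mesenchymal cells and fibroblasts were on the array, 6 passed, and they summed to 2185.5 to 2762.5 at 0 h and 2315.0 to 2700.2 at 72 h, with 3 called higher and 1 lower at 72 h. Within that sum LUM, a proteoglycan of fibroblasts, had mean signals of 13.7 ± 3.70, 135.8 ± 46.3 and 346.3 ± 42.7 at 0, 48 and 72 h, over the same interval as RET, and SNAI2 went from 616.3 ± 19.4 to 246.5 ± 74.4 at 72 h (SD, n = 3). These 2 genes were chosen after their values were seen. DCN, PRRX1, COL1A2 and COL3A1 did not pass the filter. The part of these markers in the receptor results was not tested.

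A probe set was tested if its mean log2(signal + 16) lay at or above the median of all probe sets, a signal of 16.6, and the brightest one stood for its gene. All 3 RET, 3 GFRA1, 2 GFRA2 and 2 ALK probe sets passed, as did 3 of 9 for NTRK3. None passed of the 2 for GFRA3, the 6 for NTRK2, the 1 for NGFR and the 2 for LTK, so 5 of the 9 genes and 13 of the 30 probe sets were tested. A gene that is high at 1 time only can pass through that time, so counts over those that passed describe these genes and not all 9. Changes are differences in log2(signal + 16), which understate the change of dim genes. A change was called at an adjusted p below 0.05 in limma.

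Against 0 h, 0 of the 5 tested receptors were called at 8 h, where 0.45% of all 11774 genes were, and 0 at 24 h, where 13.5% were. At 48 h 3 were called, RET and ALK higher and GFRA1 lower, against 44.0% of all genes (26.3% higher, 17.7% lower). At 72 h the same 3 were called in the same directions, against 55.5% of all genes (32.8% higher, 22.7% lower). The moderated F test over all times also called 3, against 57.0% of all genes. The receptors' share of calls thus lies near that of all genes at 48 and 72 h, and the values of each gene carry the description. Arrays that do not overlap those at 0 h were also common. Of the 11774 genes, 1214 lay above and 652 below at 8 h, and 2411 and 1645 at 24 h. The counts were 4014 and 2655 at 48 h and 4271 and 2958 at 72 h. Of the 5 tested receptors 2 lay above and 0 below at 8 h, 0 either way at 24 h, and 2 above and 1 below at 48 and 72 h. Non-overlap is therefore given as a description only. The median change of all genes at 8, 24, 48 and 72 h was 0.02, 0.05, 0.08 and 0.10. When each array was centred on its own median, that at 72 h became -0.01, and the genes called at 72 h divided into 2735 higher and 3250 lower in place of 3861 and 2670. At 48 h the same centring gave 2069 higher and 2556 lower in place of 3093 and 2082.

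**Figure D1:**
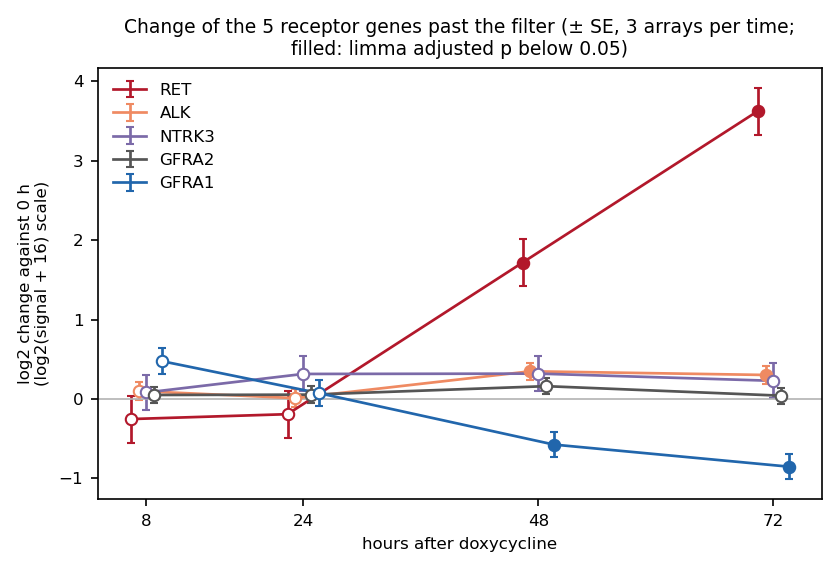
Change against 0 h of the 5 receptor genes past the filter, in log2(signal + 16) with the standard error of the limma fit, by hours after doxycycline (filled points, adjusted p below 0.05). RET reached 3.63 at 72 h, GFRA1 went to -0.85, and ALK, NTRK3 and GFRA2 lay between 0.04 and 0.30 at that time.

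The promoter windows of the 3 receptors that were called are shown as a description. Whether their sequence bears on the changes was not tested. Promoter windows from RefSeq (GRCh38.p14) were matched for 7 of the 9 receptors, 15 windows in all, since a gene can have several starts. Printed here, 5′ to 3′ on the gene's own strand, are the 250 bases before the outermost start of RET (chr10:43076819-43077068, plus strand), GFRA1 (chr10:116274706-116274955, minus strand) and ALK (chr2:29921587-29921836, minus strand). Capitals mark CpG dinucleotides.
RET: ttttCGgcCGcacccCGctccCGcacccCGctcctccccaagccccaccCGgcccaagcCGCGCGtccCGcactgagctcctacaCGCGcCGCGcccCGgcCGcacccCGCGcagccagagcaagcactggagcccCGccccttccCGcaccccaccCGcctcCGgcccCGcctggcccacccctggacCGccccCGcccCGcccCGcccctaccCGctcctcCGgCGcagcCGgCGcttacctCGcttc
GFRA1: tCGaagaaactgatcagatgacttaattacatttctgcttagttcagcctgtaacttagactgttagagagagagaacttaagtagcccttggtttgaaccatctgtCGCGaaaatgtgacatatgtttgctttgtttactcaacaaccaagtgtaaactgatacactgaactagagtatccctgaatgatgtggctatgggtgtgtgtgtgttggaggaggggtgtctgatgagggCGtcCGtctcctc
ALK: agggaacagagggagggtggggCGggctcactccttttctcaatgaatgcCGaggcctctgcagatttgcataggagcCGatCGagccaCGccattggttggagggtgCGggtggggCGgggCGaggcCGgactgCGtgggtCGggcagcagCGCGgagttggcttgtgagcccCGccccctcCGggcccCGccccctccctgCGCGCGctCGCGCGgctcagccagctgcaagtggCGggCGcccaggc
The RET window held 33 CpG dinucleotides at 79.6% G and C, the ALK window 24 at 71.6%, and the GFRA1 window 5 at 43.2%. The median over all 35116 promoter windows was 11 CpG at 58.0% G and C. GFRA1 has 3 further windows, with 23, 17 and 4 CpG, and RET and ALK have 1 more each, with 6 and 2.

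Both strands of these windows were searched for the E-box CACGTG, the core bound by MYC family factors. They were also searched for the GATA site AGATAA, the TCF core TTTGAA and a site of paired homeodomain factors. The first RET and ALK windows held none of them. The GFRA1 window held TTTGAA once, 157 bases before the start, a word found in 13.3% of all promoter windows. The second ALK window (chr2:29223824-29224073) held CACGTG once, 117 bases before its start, a word found in 6.34% of all windows. AGATAA occurred in 9.17% and the homeodomain site in 0.33% of all windows, and neither in any of the 15 receptor windows.

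RET was low and flat to 24 h and high at 48 and 72 h. Its brightest probe set, 211421_s_at, read 15.6, 28.7 and 44.8 signal units on the 3 arrays at 0 h, 18.8, 10.7 and 38.7 at 8 h, and 11.2, 21.9 and 40.0 at 24 h. It then read 107.5, 108.2 and 183.9 at 48 h and 512.1, 420.0 and 686.6 at 72 h. The first 3 times overlap one another, every array at 48 h lies above all of them, and every array at 72 h lies above all those at 48 h. The ratio of mean signals to 0 h was 4.48 at 48 h and 18.2 at 72 h.

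In the limma fit RET changed by -0.25 (adjusted p = 0.86) at 8 h and -0.19 (adjusted p = 0.73) at 24 h, with a standard error of 0.30 at each time. It rose by 1.72 (adjusted p = 1.4e-04) at 48 h and 3.63 (adjusted p = 1.2e-08) at 72 h. On the same scale the steps between neighbouring times were 0.06 from 8 to 24 h (adjusted p = 0.94), 1.91 from 24 to 48 h (adjusted p = 1.3e-04) and 1.91 from 48 to 72 h (adjusted p = 3.6e-04). Ordered by mean level, 8, 24 and 0 h do not differ beyond their spread, while 48 h stands above 24 h and 72 h above 48 h. Of the 5 tested receptors, RET was the 1 called from 48 to 72 h, where 10.7% of all genes were called (4.54% higher). From 24 to 48 h 3 receptors (RET, ALK and GFRA1) were called against 22.9% of all genes, and from 8 to 24 h 0 against 5.78%.

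The 2 other RET probe sets showed the rise at a smaller size. Probe set 205879_x_at read 43.7, 39.7 and 65.0 at 0 h, 91.3, 76.3 and 106.2 at 48 h, and 202.5, 166.8 and 227.7 at 72 h. Probe set 215771_x_at read 28.5, 23.8 and 42.2 at 0 h, 56.7, 48.6 and 65.7 at 48 h, and 166.0, 135.3 and 210.2 at 72 h. In both, the arrays at 48 h lie above those at 0 h and those at 72 h lie above all others.

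Fitted singly among the 27307 probe sets that passed, 205879_x_at changed by 0.72 at 48 h (limma adjusted p = 0.012) and 1.73 at 72 h (adjusted p = 3.0e-06), each with a standard error of 0.21. For 215771_x_at the changes were 0.63 (adjusted p = 0.022) and 1.97 (adjusted p = 4.5e-07), with a standard error of 0.20. Both 48 h calls are fragile. That of 205879_x_at ended without replicate 2 of 0 h (adjusted p = 0.060) and without replicate 3 of 48 h (adjusted p = 0.058). That of 215771_x_at ended after quantile normalisation (adjusted p = 0.078), with centring (0.062), without the filter (0.055), and without replicate 1 (0.068) or 2 (0.10) of 0 h or replicate 1 (0.050) or 3 (0.087) of 48 h. The ratios of mean signals at 72 h were 4.02 and 5.41, against 18.2 for the brightest probe set, so the size of the rise depends on the probe set. Both carry the suffix that Affymetrix gives to probe sets whose probes may also match other transcripts. The brightest one carries another suffix, _s_at, and which of the 3 sizes lies nearest the true one was not tested. With the mean of the 3 probe sets in place of the brightest, the RET change was 1.02 at 48 h and 2.44 at 72 h.

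Replicate 3 was the highest of the 3 arrays in 14 of 15 combinations of RET probe set and time. Without any replicate 3 array, RET rose by 1.72 at 48 h and 3.67 at 72 h (limma adjusted p = 7.8e-09). With the replicate number as a block in the fit, the change at 72 h was the same 3.63 with an adjusted p of 4.8e-12.

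**Figure D2:**
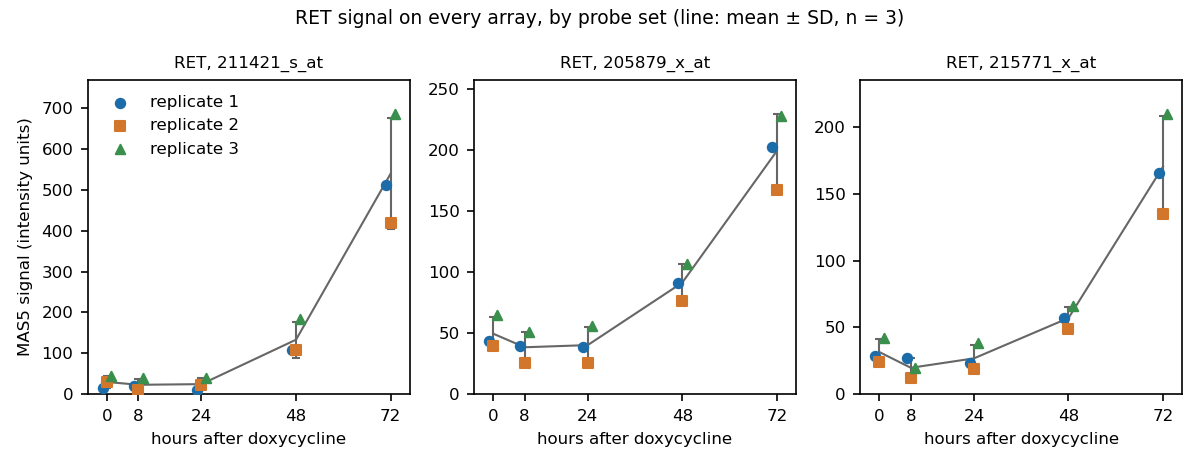
MAS5 signal of the 3 RET probe sets on each of the 15 arrays by hours after doxycycline, with the mean ± SD of 3 arrays as a line; each panel has its own linear axis from 0. In all 3 panels the arrays at 72 h lie above every other array, and replicate 3 (triangles) is the highest in 14 of the 15 columns of points.

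GFRA1, the preferred partner of GDNF, moved the opposite way to RET. Its brightest probe set, 227550_at, read 73.1, 83.5 and 66.0 at 0 h, 103.4, 92.4 and 135.2 at 8 h, and 85.4, 70.9 and 80.3 at 24 h. It read 34.6, 46.3 and 53.9 at 48 h and 46.0, 28.6 and 28.7 at 72 h. The 3 arrays at 8 h lie above those at 0 h, those at 24 h overlap them, and those at 48 and 72 h lie below them.

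In limma the change in GFRA1 was 0.48 at 8 h (adjusted p = 0.32) and 0.07 at 24 h (adjusted p = 0.82). It fell by 0.57 at 48 h (adjusted p = 0.0078) and by 0.85 at 72 h (adjusted p = 2.2e-04), with a standard error of 0.16 throughout. The step from 24 to 48 h was -0.65 (adjusted p = 0.0071), while those from 8 to 24 h (-0.40, adjusted p = 0.17) and from 48 to 72 h (-0.28, adjusted p = 0.30) were not called. In order of level, the arrays at 72 and 48 h overlap, as do those at 0 and 24 h, while those at 48 h lie below 0 h and those at 8 h lie above 24 h, the latter without a call.

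The other GFRA1 probe sets were called lower at 72 h. Probe set 230163_at read 32.7, 38.5 and 37.1 at 0 h and 20.1, 12.2 and 25.5 at 72 h, and 205696_s_at read 40.4, 27.9 and 32.2 at 0 h and 13.8, 13.2 and 17.7 at 72 h. In both, all arrays at 72 h lie below those at 0 h. Their changes at 72 h were -0.58 and -0.67 (limma adjusted p = 0.0075 for each), and those at 48 h, -0.29 and -0.33, were not called (adjusted p = 0.18 and 0.20). At 48 h the arrays of 230163_at (19.4 to 32.4) lay below those at 0 h, and those of 205696_s_at (16.7 to 31.1) overlapped them. Without the replicate 2 array at 72 h, the change of 230163_at was -0.43 with an adjusted p of 0.051.

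GFRA2, the co-receptor for neurturin, showed no called change. Probe set 205721_at read 760.7, 990.0 and 846.9 at 0 h, 763.4, 932.4 and 998.0 at 8 h, and 870.6, 871.8 and 944.9 at 24 h. It read 899.9, 1050.2 and 950.7 at 48 h and 952.1, 862.9 and 848.9 at 72 h. All 5 times overlap, with changes of 0.05, 0.06, 0.16 and 0.04 against 0 h (SE 0.10), none past the threshold in limma (adjusted p = 0.22 at 48 h and 0.75 at 72 h).

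The second GFRA2 probe set, 205722_s_at, read 670.8, 647.4 and 643.3 at 0 h and 557.4, 626.9 and 357.8 at 72 h. Its 72 h arrays lie below those at 0 h, but the change of -0.37 ± 0.25 (SE) was not called (limma adjusted p = 0.24). Its lowest arrays were replicate 3 at 8 h, at 280.6, and replicate 3 at 72 h. GFRA3, the co-receptor for artemin, did not pass the filter: 214479_at ranged from 0.7 to 8.0 and 229936_at from 2.0 to 29.6 over the 15 arrays, the highest being 1 array at 48 h.

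**Figure D3:**
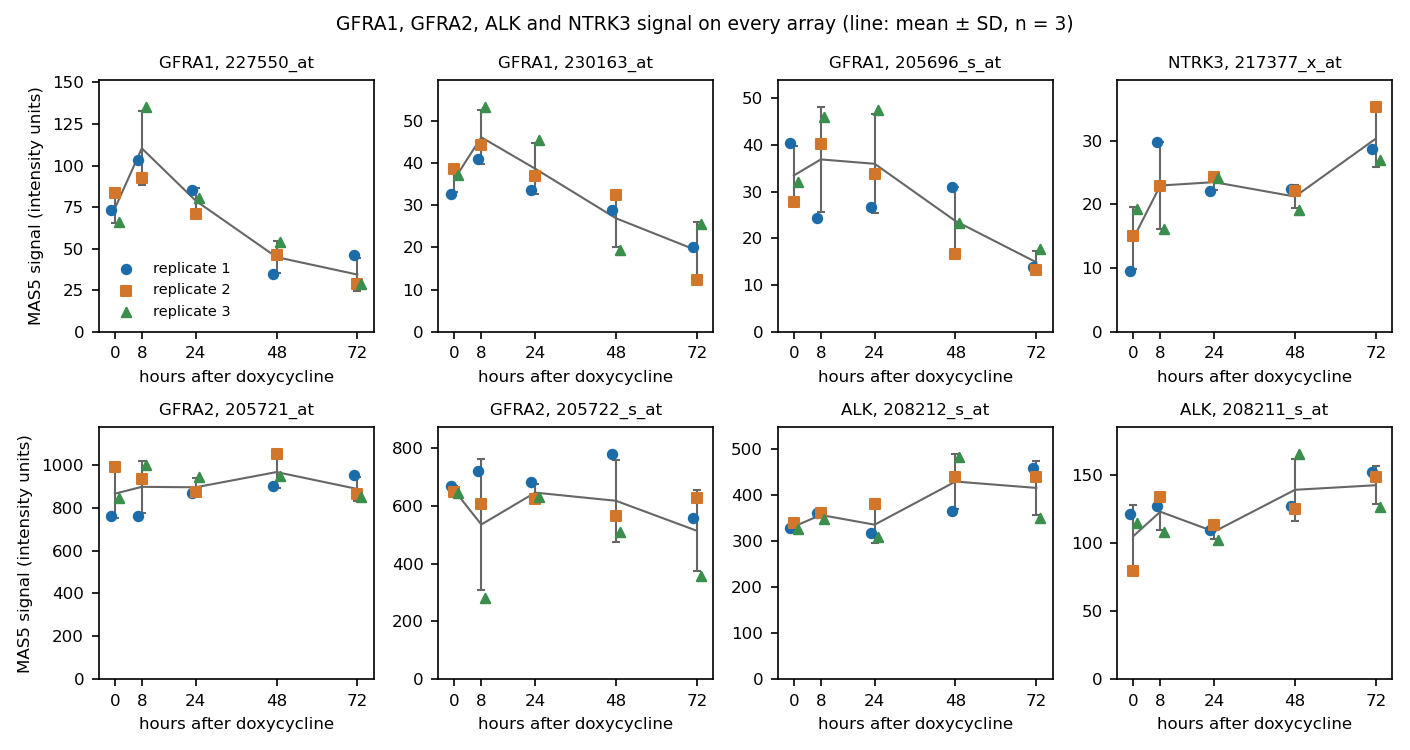
MAS5 signal by array for the probe sets of GFRA1, GFRA2 and ALK and for 1 NTRK3 probe set, by hours after doxycycline, with the mean ± SD of 3 arrays as a line; each panel has its own linear axis from 0. The NTRK3 panel shows 217377_x_at, picked for the highest 72 h mean among the NTRK3 probe sets that passed the filter. The others that passed, 228849_at (which stood for NTRK3) and 217033_x_at, were not called at 72 h and are not drawn. All 3 GFRA1 panels are lower at 72 h than at 0 h with no overlap, while GFRA2 205721_at stays between 760.7 and 1050.2.

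ALK was measured well above the filter and changed little. Probe set 208212_s_at read 327.9, 339.9 and 326.9 at 0 h, 360.4, 361.5 and 348.2 at 8 h, and 316.9, 380.2 and 309.7 at 24 h. It read 365.8, 439.1 and 483.3 at 48 h and 458.0, 439.1 and 349.5 at 72 h. The arrays at 8, 48 and 72 h lie above the tightly grouped 0 h arrays, and those at 24 h overlap them.

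ALK rose by 0.35 at 48 h (limma adjusted p = 0.015) and 0.30 at 72 h (adjusted p = 0.026), with a standard error of 0.11, and changed by 0.10 at 8 h (adjusted p = 0.85) and 0.01 at 24 h. The second probe set, 208211_s_at, read 121.3, 79.3 and 114.9 at 0 h, 127.2, 125.1 and 165.4 at 48 h, and 152.6, 148.8 and 126.4 at 72 h. Both later groups lie above 0 h, with changes of 0.37 (adjusted p = 0.053) and 0.40 (adjusted p = 0.026). These calls are fragile: after centring every array on its own median, the ALK changes were 0.25 (adjusted p = 0.090) and 0.19 (adjusted p = 0.19).
Leaving out 1 array also ended them. At 48 h the adjusted p was 0.051 without replicate 2 and 0.088 without replicate 3 of that time. At 72 h it was 0.063 and 0.062 without replicate 1 or 3 of 0 h, and 0.12 and 0.091 without replicate 1 or 2 of 72 h. Without any replicate 3 array the 48 h change was 0.25 (adjusted p = 0.056). The step from 24 to 48 h was 0.34 (adjusted p = 0.033), and its call ended with centring (adjusted p = 0.073), without the filter (0.056), with trend=FALSE (0.051) and without any replicate 3 array (0.18). It also ended without replicate 1 (0.11) or 3 (0.12) of 24 h and without replicate 2 (0.097) or 3 (0.17) of 48 h.

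LTK lay below the filter on both probe sets. Probe set 207106_s_at ranged from 0.9 to 11.0, and 217184_s_at read 4.9, 3.8 and 5.5 at 0 h and 9.9, 12.6 and 12.3 at 72 h. The latter's 72 h arrays lie above those at 0 h, and in a fit of all 54613 probe sets without the filter its change was 0.41 (limma adjusted p = 0.055 at 72 h, 0.026 in the F test). In that fit 22.6% of probe sets were called at 72 h and 21.4% in the F test.

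Of NTRK2, NTRK3 and NGFR, NTRK3 had probe sets past the filter, and its 9 probe sets disagreed. The brightest, 228849_at, read 19.5, 8.3 and 28.9 at 0 h and between 19.9 and 26.4 at 72 h, with changes of 0.08, 0.32, 0.32 and 0.23 over the 4 later times (SE 0.22), the last 3 with limma adjusted p of 0.38, 0.26 and 0.40. Its 0 h arrays, 8.3 to 28.9, overlap those of each later time. Leaving out all replicate 3 arrays gave 0.76 at 24 h (adjusted p = 0.032) and 0.63 at 48 h (adjusted p = 0.027), and array weights gave 0.49 at 48 h (adjusted p = 0.042).

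Probe set 217377_x_at read 9.6, 15.1 and 19.3 at 0 h and 28.7, 35.3 and 27.0 at 72 h. Its 72 h arrays lie above those at 0 h, and it rose by 0.60 ± 0.16 (SE, limma adjusted p = 0.0043). The third that passed, 217033_x_at, read 22.7, 18.9 and 26.4 at 0 h and 15.2, 21.7 and 26.1 at 72 h, a change of -0.07 (adjusted p = 0.75).
Among the 6 dim NTRK3 probe sets, 213960_at read 6.6, 2.6 and 5.9 at 0 h, 12.1, 22.1 and 10.7 at 48 h, and 25.3, 22.3 and 15.7 at 72 h. Without the filter it rose by 0.82 at 72 h (adjusted p = 0.0058). Probe sets 215025_at and 215311_at also had 72 h arrays that lie above 0 h, at 13.2 to 21.8 against 4.0 to 11.2 and at 14.9 to 26.4 against 8.0 to 12.7. Their changes of 0.45 and 0.51 were not called (adjusted p = 0.22 and 0.084). The other 3, 215115_x_at, 206462_s_at and 1557795_s_at, overlapped 0 h at 72 h, with changes of -0.07, 0.34 and 0.43 that were not called (adjusted p = 0.92, 0.39 and 0.26). Counted over probe sets that passed, 5 of the 13 receptor probe sets were called at 48 h and 9 at 72 h, against 34.6% and 46.4% of all such probe sets.

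The 6 NTRK2 probe sets read between 0.4 and 17.8 over all arrays. NGFR read 0.6 to 10.7 on its 1 probe set. In the fit of 19775 genes without the filter, where 32.6% of genes were called at 72 h, GFRA3, NTRK2, NGFR and LTK were not called at any time. Signals this low limit what change can be resolved, and these transcripts are not shown to be absent.

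**Figure D4:**
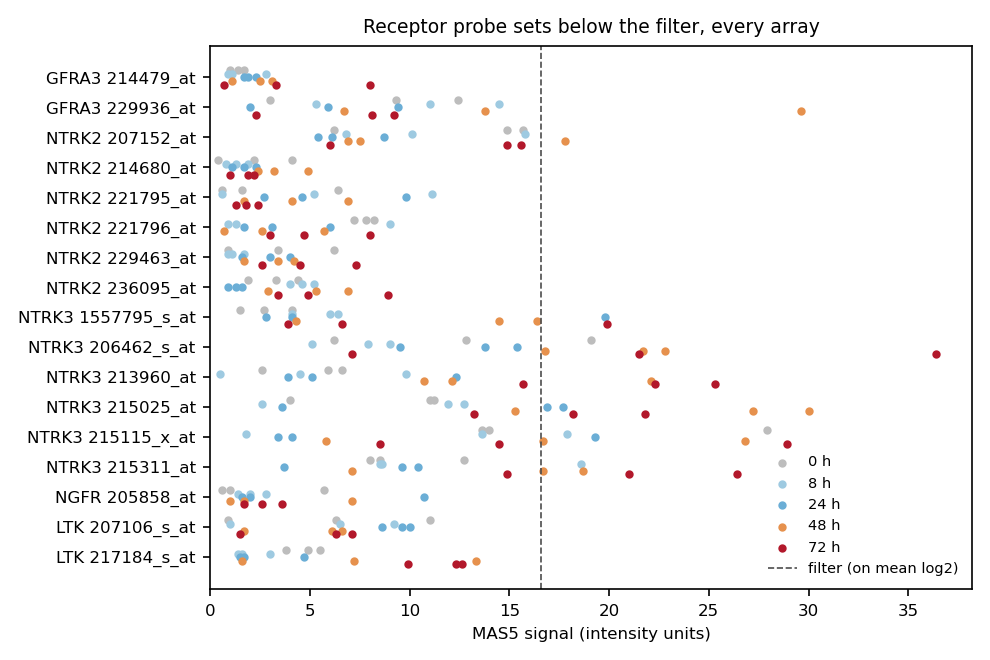
MAS5 signal on each of the 15 arrays for the 17 receptor probe sets below the filter, coloured by hours after doxycycline; the dashed line marks the signal of 16.6 that corresponds to the filter on the mean. Most points lie left of the line, and the NTRK3 probe set 213960_at has its 72 h points (15.7 to 25.3) right of its 0 h points (2.6 to 6.6).

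Other genes of these pathways were taken from lists of ligands, partner receptors, adaptors, noradrenergic transcription factors, ERK output genes and other receptor tyrosine kinases. In that order 6, 7, 33, 12, 15 and 25 of their genes were tested. As with the receptors, a list gene that is high at late times only can pass the filter through those times. Of these genes 0 were called at 8 h, 13 after 24 h, 48 after 48 h and 64 after 72 h. Among all genes 0.45%, 13.5%, 44.0% and 55.5% were called at these times. Counts at 72 h are read against the 32.8% of all genes called higher and the 22.7% called lower, and medians against 0.10 for all genes.

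Of the ligands 6 of 7 on the array were tested, 1 was called higher and 1 lower at 72 h, and the median change was 0.01. BDNF, the ligand of NTRK2, went from a signal of 37.5 ± 0.61 at the start to 71.4 ± 7.91 after 48 h and 113.0 ± 37.6 after 72 h (SD, n = 3), a rise of 1.23 ± 0.16 (SE, limma adjusted p = 4.8e-06). PTN, pleiotrophin, a heparin-binding growth factor reported as a ligand of ALK, fell from 359.7 ± 25.1 to 172.3 ± 3.07, a change of -0.99 ± 0.10. Of the other receptors and co-receptors 7 of 10 were tested, 5 were called higher and 1 lower, with a median of 0.59.
LINGO1, a partner of NGFR in the Nogo receptor complex, rose from 33.1 ± 7.54 to 104.0 ± 13.7, by 1.29. The sortilin-related receptors SORCS2 (from 12.1 ± 1.05 to 40.8 ± 10.7), SORL1 (by 0.73) and SORCS1 (by 0.58) rose, as did KIDINS220, a scaffold that neurotrophin receptors phosphorylate (0.59). NCAM1, an alternative receptor for GDNF with GFRA1, changed by -0.25 (limma adjusted p = 0.025), a call that ended without any replicate 3 array (-0.15, adjusted p = 0.13), after quantile normalisation (-0.20, adjusted p = 0.071) and without each of 4 single arrays in turn.

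Of the adaptors and signalling proteins 33 of 37 were tested, 14 were called higher and 7 lower, with a median of 0.20. SHC1, an adaptor that binds phosphorylated RET, ALK and Trk receptors, rose from 2027.6 ± 191.4 to 4766.0 ± 287.3, by 1.23 ± 0.09. The RET and insulin receptor adaptor DOK4 rose by 1.06, the docking protein IRS2 by 0.96 and the neuronal adaptor SHC3 by 0.74, and the ubiquitin ligase CBLB rose from 253.0 ± 41.3 to 526.3 ± 118.5. Without replicate 3 of 72 h, IRS2 changed by 0.68 with a limma adjusted p of 0.051.
DOK5, a relative of DOK4 that also binds RET, fell from 941.3 ± 97.6 to 261.6 ± 42.9, by 1.79 ± 0.13. PIK3R1 (-0.62), the regulatory subunit of PI3 kinase, CRKL (-0.51), DOK1 (-0.48) and the ubiquitin ligase NEDD4 (-0.46) also fell. The DOK1 call ended without any replicate 3 array (-0.27, adjusted p = 0.16) and without replicate 3 of 72 h (-0.33, adjusted p = 0.062).

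Of the noradrenergic transcription factors 12 of 14 were tested, 8 were called higher and 1 lower, with a median of 0.29. ISL1, a homeodomain factor of sympathetic neurons, went from 335.5 ± 51.0 to 1150.8 ± 99.7, a rise of 1.74 ± 0.11. SOX11 rose by 1.20, HAND2 by 1.08, HAND1 by 0.48 and GATA2 by 0.42. INSM1 changed by -0.42, and by -0.13 with a limma adjusted p of 0.42 when its probe sets were averaged.

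Of the ERK output genes, transcripts that follow ERK activity downstream of such receptors, 15 of 16 were tested, 9 were called higher and 1 lower, with a median of 0.86. At 48 h the counts were 7 and 2, against 26.3% of all genes called higher and 17.7% lower. At 24 h they were 0 and 2, where 13.5% of all genes were called in either direction. DUSP6, a phosphatase of ERK, went from 31.1 ± 18.6 to 102.3 ± 40.6 and then 204.8 ± 29.7 at 48 and 72 h, a rise of 2.29 ± 0.26 (SE, limma adjusted p = 9.0e-07). The feedback inhibitor SPRY2 rose by 1.94 ± 0.38, the ETS factor ETV1 by 1.69, the phosphatase DUSP4 by 1.45 and SPRED2 by 1.20. PHLDA1 fell by 1.01 ± 0.12.

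Of the 50 other receptor tyrosine kinases on the array, with 150 probe sets, 25 were tested, 11 were called higher and 5 lower, with a median of 0.19. The greatest rise among them was that of EPHA2, from 25.1 ± 7.77 to 99.9 ± 21.6, by 1.49 ± 0.17. RET rose by 3.63 on its brightest probe set and by 1.73 and 1.97 on its other 2. ROR1 (1.09), EPHB3 (0.70), PDGFRB (0.64) and AATK (0.52) rose as well. FGFR2 fell from 135.5 ± 33.4 to 26.6 ± 2.95, by 1.81 ± 0.17, and KIT (-0.92), FLT4 (-0.62), TYRO3 (-0.46) and PDGFRA (-0.29) fell.
The calls of AATK, TYRO3 and PDGFRA each ended when single arrays were left out: AATK without replicate 3 of 0 h (0.34) or replicate 1 (0.50) or 2 (0.43) of 72 h, TYRO3 without replicate 2 of 72 h (-0.32), and PDGFRA without replicate 2 of 0 h (-0.20) or replicate 1 (-0.25) or 2 (-0.30) of 72 h. PDGFRA also missed the threshold after quantile normalisation (-0.22, limma adjusted p = 0.089), without the filter (adjusted p = 0.056) and with trend=FALSE (adjusted p = 0.054).

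**Figure D5:**
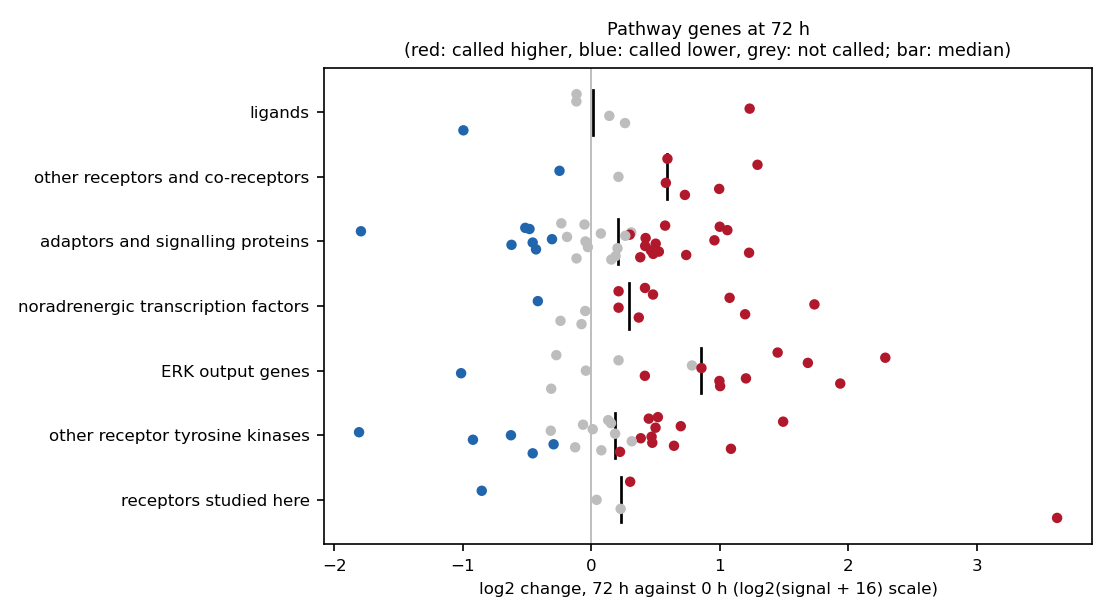
Change at 72 h against 0 h in log2(signal + 16) of every tested gene of the 6 pathway lists and of the 5 tested receptors, 1 point per gene (red called higher, blue called lower, grey not called), with the median of each row as a bar. RET, at 3.63, is the point farthest to the right, and the ERK output genes have the highest list median, 0.86.

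The genes whose levels over the 15 arrays were most like that of RET (brightest probe set, log2 values) are given as a description, since all points share the time course. They were APLP2, an amyloid precursor-like protein (Pearson r = 0.986), MAP3K1, a kinase of the MAPK pathways (0.982), TPM1, a tropomyosin (0.981), and H2BC12, a histone H2B (0.980). They were followed by SCG2, secretogranin II of dense-core vesicles (0.979), KHDRBS3, an RNA-binding protein (0.978), NEFL, the light neurofilament (0.978), and SYT11, a synaptotagmin (0.977). At 0, 24, 48 and 72 h the mean signals of SCG2 were 243.3, 191.7, 446.3 and 812.1, and those of H2BC12 were 141.2, 127.2, 450.7 and 1166.6.
Of these 8, 3 were also among the 8 nearest genes with Spearman's correlation, 3 with RET probe set 205879_x_at and 3 with 215771_x_at, so the order among near neighbours depends on the measure. Among the receptors the Pearson r with RET was 0.62 for ALK, 0.17 for GFRA2, 0.095 for NTRK3 and -0.83 for GFRA1 (n = 15 arrays).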

How the data were processed

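The values are signal intensities that the authors computed with MAS5 in GCOS, per the submitters' processing notes, and deposited for 54675 probe sets on 15 arrays. Versions are not given in the sources used here. Their trimmed mean (2% at each end) was 99.99 on every array and their median 15.1 to 20.5, so they were used as deposited. Gene names came from the platform annotation: 41091 probe sets named 1 gene, 1801 several, 11721 none, and 62 were controls. By Entrez ID, 41037 of the 41091 matched RefSeq.

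On log2(signal + 16), probe sets with a mean at or above the median of non-control probe sets entered (27307), the brightest of each gene stood for it (11774 genes), and 1 limma model (version 3.58.1 in R 4.3.3, eBayes with trend=TRUE) held all times. The Benjamini-Hochberg adjustment ran over all genes or probe sets tested, at 0.05. Tables and figures were made with pandas 2.3.3 and matplotlib 3.10.9 in Python 3.11.15. The number of arrays limits the precision.

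Named are all 9 receptors, up to 5 genes called higher and 5 lower at 72 h of each pathway list by size, the 8 genes most like RET, and CDK2. Marker genes named beside these are those whose level bears on the cell type. The receptors and lists were chosen with earlier results of these data known. Alternatives changed the pseudocount (1 or 64), scaling, filter, probe sets per gene, variance trend, array weights, arrays in the fit, replicate block and single arrays.

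Nothing in the labels ties equal replicate numbers to shared cultures. Residuals of arrays with equal numbers correlated above 0.1 in all 3 pairs for 48 h with 0 h (0.12 to 0.21), 72 h with 24 h (0.12 to 0.19) and 72 h with 48 h (0.12 to 0.35), so the block was run as an alternative.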

Additional observations from a re-analysis of the deposited data

How the results depend on the processing

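RET and GFRA1 kept their direction and their calls at 48 and 72 h under every alternative in which they were tested. Under the alternatives that leave out no single array, RET ranged from 1.02 to 2.20 at 48 h and from 2.44 to 4.23 at 72 h, and GFRA1 from -0.75 to -0.35 and from -1.11 to -0.49. With the brightest 25% of probe sets, RET, GFRA1 and NTRK3 were not tested: 1 receptor was called at 48 h, at 72 h, in the F test and from 24 to 48 h, and 0 from 48 to 72 h. List genes called then numbered 28 at 48 h and 36 at 72 h. Without any replicate 3 array, a setting chosen after seeing the data, 1 receptor and 1 receptor probe set were called at 24 h. Receptor probe sets called at 48 h numbered 3 with centring and 2 to 6 without single arrays. List genes called numbered 1 at 8 h with averaged probe sets, and at 24 h 8 with centring, 23 with array weights, 22 with the replicate block and 7 to 16 without single arrays. The replicate block changed no call of a receptor. Of the 8 genes nearest RET, 3 were shared under each other measure. Of 85 single results 58 were called, and 44 kept their call in every setting.

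Changes whose sign turned were small, and none was called in the main setting or in the one named. They were RET from 8 to 24 h (-0.0070 with quantile normalisation, -0.21 to 0.34 without single arrays) and at 24 h (-0.46 to 0.062 without single arrays). GFRA1 at 24 h was -0.011 with quantile normalisation and -0.0044 without any replicate 3 array. GFRA2 at 8 h was -0.17 with averaged probe sets, -0.036 with array weights, -0.040 without any replicate 3 array and -0.037 to 0.16 without single arrays. At 24 h it was -0.0062 with centring and -0.032 to 0.15 without single arrays, and at 72 h -0.075 with centring, -0.17 with averaged probe sets and -0.045 to 0.14 without single arrays. GFRA2 205722_s_at at 48 h was 0.0083 without any replicate 3 array and -0.28 to 0.020 without single arrays. NTRK3 was -0.16 to 0.29 at 8 h and -0.0094 to 0.43 at 72 h without single arrays. NTRK3 217033_x_at at 48 h was -0.098 with quantile normalisation, -0.082 with centring and -0.063 to 0.098 without single arrays, and at 72 h -0.17 to 0.048. ALK at 24 h was -0.050 with centring and -0.078 to 0.064 without single arrays, and from 48 to 72 h 0.0058 with array weights, 0.16 without any replicate 3 array and -0.15 to 0.069 without single arrays. The cause of these changes was not tested. Signal near the filter limits NTRK3, and signal below it GFRA3, NTRK2, NGFR and LTK. In F tests the setting with 2 times alone could not be fitted.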
